A study of Mus musculus with 8 samples.

Results

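Colonic cells sorted as CX3CR1int Ly6Clo on day 4 of dextran sodium sulphate colitis were compared with CX3CR1hi F4/80hi macrophages sorted from colons at the same day of the same colitis model. The compared genes were those whose brighter array of the pair lay at or above that array's own median. By this rule 10396 of the 19938 genes with a named probe set were compared. Each gene's log2 value on the CX3CR1hi array was subtracted from its log2 value on the Ly6Clo array, so a difference of 1 is a 2-fold difference and a positive value means a brighter signal in Ly6Clo cells. The rule used brightness and not the difference. Just inside it lay Mcat, at 5.84 in Ly6Clo cells and 5.77 in CX3CR1hi cells, and just outside it lay Spa17, at 5.77 and 5.87.

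The series measured total RNA of sorted mononuclear phagocytes on Affymetrix arrays in 8 groups, with 1 array in each. All cells came from C57BL/6 mice of genotype Cx3cr1gfp/+, in which a green fluorescent protein gene replaces 1 copy of Cx3cr1. Cells of both compared groups came from the colonic lamina propria of male mice given dextran sodium sulphate, a detergent-like polymer that injures the colonic epithelium. The 2 further colitis groups, also male, were splenic Ly6Chi monocytes and CX3CR1int Ly6Chi cells of the colon. The steady-state groups were colonic CX3CR1hi F4/80hi cells of male mice, and, from female mice, colonic CX3CR1hi resident macrophages, colonic CX3CR1hi monocyte-reconstituted resident macrophages and splenic Ly6Chi monocytes. The labels give neither age nor the number of mice behind a sample. Without replicate arrays no test was possible, so every difference describes a pair of samples and has no error. As a second view, each Ly6Clo value was set against the range of all 4 colonic CX3CR1hi arrays, which are different groups and not replicates. The sorting gates used CX3CR1, Ly6C and the macrophage antigen that Adgre1 encodes, so Cx3cr1 (7.51 in Ly6Clo cells, 11.29 in CX3CR1hi cells) and Adgre1 (9.31 and 12.32) only check the labels. Ly6c1 and Ly6c2 were not analysed here.

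Macrophages and conventional dendritic cells both take up antigen in the gut wall. Macrophages stay in the tissue, need the growth factor receptor CSF1R, clear dying cells and bacteria, and in the healthy colon secrete interleukin 10. Conventional dendritic cells arise from FLT3-dependent precursors, express the transcription factor ZBTB46, and on maturation use the chemokine receptor CCR7 to reach lymph nodes, where they prime T cells. Monocytes that enter the inflamed colon have been described as giving rise to cells with features of either kind, and the Ly6Clo gate holds CX3CR1int cells that have little Ly6C on their surface.

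In the pair of colitis arrays, 756 genes were at least 2-fold higher in Ly6Clo cells (7.27% of the genes compared) and 1227 were at least 2-fold lower (11.8%), together 19.1%. The other 8413 genes lay within 2-fold. The shares of 7.27% and 11.8% are the background for the counts of higher and lower genes in the groups below. A gene bright on only 1 of the arrays enters through that array, so counts over genes past the rule are descriptions. The median difference was -0.01, and differences ran from -5.27 to 6.02. At 4-fold, 194 genes were higher and 301 lower. Against the whole range of the 4 CX3CR1hi arrays, 521 genes (5.01%) were at least 2-fold above the highest and 759 (7.3%) at least 2-fold below the lowest. Array medians lay between 5.77 and 5.87 over the 8 arrays. Ribosomal protein genes were near even: all 19 measured lay within 2-fold, with a median difference of 0.27. In sorted bulk samples, fewer cells of a type and less RNA per cell cannot be told apart.

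Among the 15 genes with the largest excess in Ly6Clo cells were genes of dendritic cells. Flt3, the receptor for the dendritic cell growth factor FLT3 ligand, led them with a value of 11.16 against 5.14, a 64.9-fold difference. Next came Cd7, an immunoglobulin superfamily receptor (difference 5.75), the chemokine genes Ccl22 (5.73) and Ccl17 (5.30), the G protein-coupled receptor gene P2ry10 (5.53) and Ccr7 (5.30). Itgae, which encodes the integrin chain CD103, differed by 4.76, and Btla, an inhibitory receptor of lymphocytes and dendritic cells, by 4.66. Sema7a, which encodes a membrane-anchored semaphorin, differed by 4.55, and Klrd1, the lectin-like receptor CD94, by 5.01. Serpinb6b, a protease inhibitor gene, differed by 4.76, Ramp3, a receptor activity-modifying protein gene, by 4.97 and Mreg, the melanoregulin gene, by 4.71. The remaining genes of the 15, Ifitm6 (difference 5.27) and S100a4 (4.91), were also high in splenic monocytes. Ifitm6 stood at 11.50 in Ly6Clo cells, 12.32 in Ly6Chi cells and 12.81 and 12.78 in splenic monocytes of colitis and steady state, against 5.50 to 6.23 on the CX3CR1hi arrays.

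The 15 genes with the largest deficit in Ly6Clo cells included genes of tissue macrophages. Mmp13, a collagenase gene, stood at 6.22 against 11.49, which is 38.7-fold lower. Cd4, which gut macrophages can carry as well as T cells, stood at 5.64 against 10.80. Also low were Olfml3 (difference -5.01), Fcrls, an Fc receptor-like gene (-5.00), the chemokine gene Ccl8 (-5.00), the potassium channel gene Kcnj10 (-4.71), Npl, an enzyme of sialic acid breakdown (-4.62), the transporter gene Slco2b1 (-4.62), Gpnmb (-4.53), Lilra5 (-4.45), the growth factor gene Igf1 (-4.40) and P3h2, a collagen prolyl hydroxylase (-4.34). For these 12 genes the Ly6Clo value lay at least 2-fold below all 4 CX3CR1hi arrays. The other genes of the 15 are known from epithelium or pancreas: the antimicrobial lectins Reg3b (-4.64) and Reg3g (-4.31) and the digestive enzyme Cpa1 (-4.38). Reg3b stood at 6.75 in Ly6Clo cells, 11.39 in colitis CX3CR1hi cells and 11.28 in colitis Ly6Chi cells, but only at 6.93 in steady-state F4/80hi cells, so its deficit was not shared with that macrophage array.

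**Figure D1:**
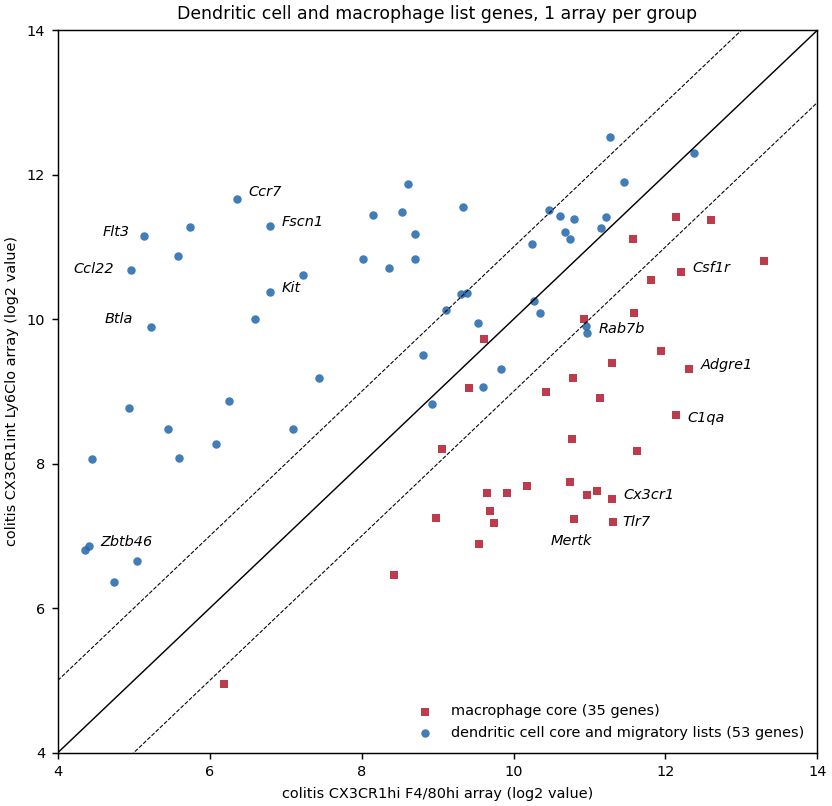
Log2 value on the colitis Ly6Clo array (vertical axis) against the colitis CX3CR1hi F4/80hi array (horizontal axis) for genes of the dendritic cell core and migratory lists (blue circles) and the macrophage core list (red squares), 1 point a gene and 1 array a group, with a solid line at equality and dashed lines at 2-fold. The dendritic cell genes Flt3 (11.16 against 5.14) and Ccr7 (11.66 against 6.36) lie far above equality, and the macrophage genes Mertk (7.23 against 10.79) and C1qa (8.68 against 12.14) far below it.

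Signal of other tissue cells differed between the same arrays and stands beside every result here. Of 23 epithelial marker genes, 16 were at least 2-fold lower and 0 higher in Ly6Clo cells. Of the 23, 13 lay at least 2-fold below the range of all 4 CX3CR1hi arrays, beside 7.3% of all genes compared. The median level of the 23 was 9.29 on the Ly6Clo array and 10.99 on the colitis CX3CR1hi array. It was 10.66 to 11.25 on the other CX3CR1hi arrays, 9.85 on the Ly6Chi array and 5.02 to 5.74 in spleen. Of 13 pancreatic acinar genes, 11 were lower and 0 higher, with a median level of 5.24 against 7.15 and a range of 5.66 to 8.38 over the other CX3CR1hi arrays. Of 13 stromal genes measured, 9 were lower and 0 higher, with a median level of 6.03 against 7.42. The other CX3CR1hi arrays had stromal medians of 5.99 to 6.39, and 0 stromal genes lay at least 2-fold below the range of all 4. Of 10 plasma cell genes measured, 1 was higher (Irf4) and 3 lower, among them Igha (9.51 against 11.65) and Jchain (10.71 against 11.90). T cell genes were dim on both arrays: 4 of the 17 measured passed the brightness rule, and Cd3e stood at 5.57 against 4.98. Of 13 natural killer and innate lymphoid genes measured, 3 passed the rule, and all 3 were higher in Ly6Clo cells and above every CX3CR1hi array. They were Klrk1 (9.98 against 6.08), Kit and Tbx21 (8.71 against 5.15). The median difference was 3.58 over these 3 but 0.51 over all 13 measured. The other 10 were below the rule, among them Ncr1 at 4.64 against 4.30 and Eomes at 4.63 against 4.62. B cell genes went both ways, with 1 of 13 measured higher (Ms4a1, 6.27 against 4.62) and 4 lower. The part of these cells in the differences below was not tested.

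The core genes of conventional dendritic cells were mostly brighter in Ly6Clo cells. Of 26 measured, all passed the brightness rule, 17 were at least 2-fold higher, 2 were lower and 7 lay within 2-fold, beside backgrounds of 7.27% and 11.8%. Their median difference was 2.40, and the same 17 lay above the range of all CX3CR1hi arrays. The 2 lower genes were Rab7b, a small GTPase of the endosome (9.80 against 10.97), and Adam19, a membrane protease (9.91 against 10.95).

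Flt3 read 11.16 in Ly6Clo cells, 5.14 and 5.32 in colitis and steady-state F4/80hi cells, 4.87 in resident cells, 5.20 in monocyte-reconstituted cells, 9.03 in Ly6Chi cells, and 8.80 and 8.85 in colitis and steady-state spleen. It was highest in Ly6Clo cells, intermediate in the 3 Ly6Chi samples, and low on every CX3CR1hi array. Zbtb46 read 6.86 in Ly6Clo cells and 4.38 to 4.67 on the other 7 arrays. The Ly6Clo array thus stood clear of the rest, by 2.19 from its nearest neighbour, the Ly6Chi array. Kit, the stem cell factor receptor gene, read 10.37 in Ly6Clo cells, 6.52 to 7.61 on the CX3CR1hi arrays, 7.06 in Ly6Chi cells and 5.01 to 5.02 in spleen. Like Zbtb46, it was not raised in Ly6Chi cells. Bcl11a, a transcription factor gene of blood cell development, differed by 3.40 and was also high in Ly6Chi cells (8.86) and spleen (9.42 to 9.49). Traf1, an adaptor of tumour necrosis factor receptors, differed by 3.37, the kynurenine pathway enzymes Kmo and Haao by 3.26 and 3.04, and Dpp4, the peptidase CD26, by 2.95. Itgax, the integrin CD11c gene often used to mark dendritic cells, did not separate the pair: it read 11.90 against 11.46, and 11.46 to 11.68 over the CX3CR1hi arrays.

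**Figure D2:**
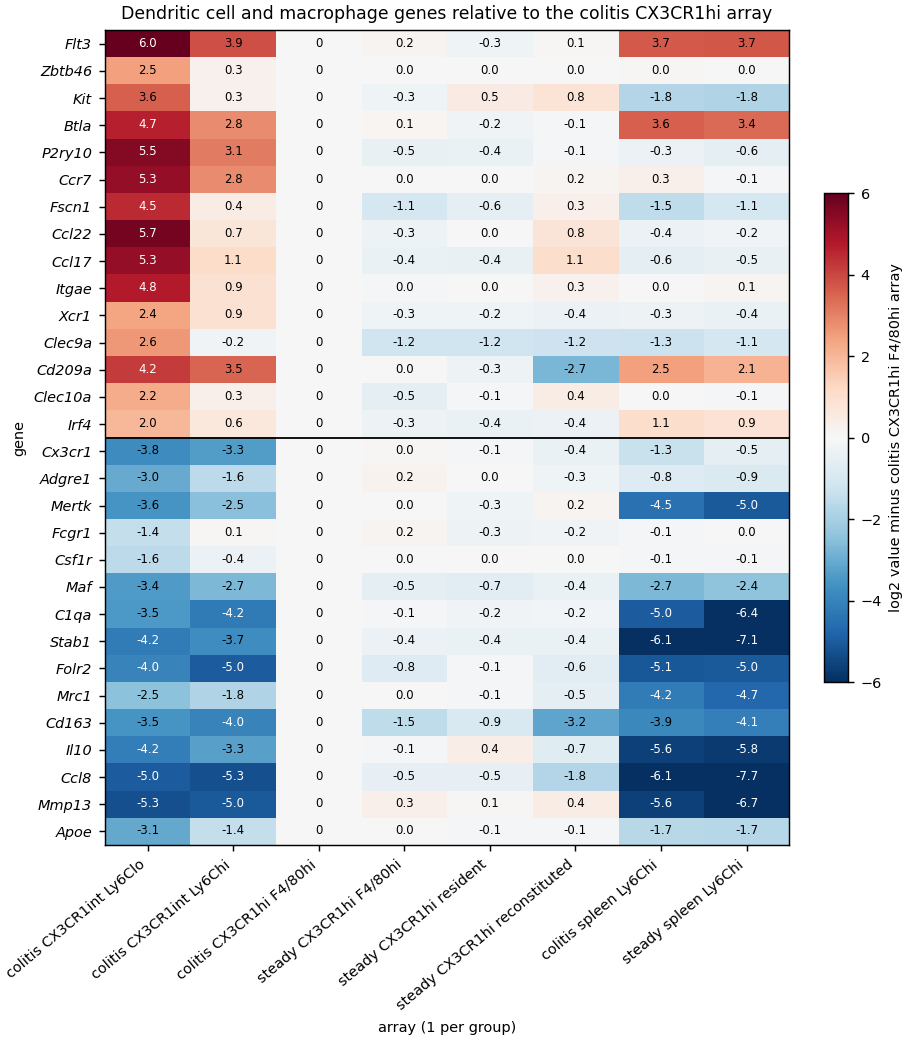
Log2 value of selected dendritic cell and macrophage genes (rows) on each array (columns, 1 per group) minus its value on the colitis CX3CR1hi F4/80hi array, with the number in each cell and its colour giving the difference. In colitis Ly6Clo cells Flt3 differs by 6.02, Ccr7 by 5.30 and Mertk by -3.56, while steady-state CX3CR1hi arrays stay close to the colitis one for most of these genes.

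Genes of mature migratory dendritic cells formed a further group. Of 28 measured, all passed the brightness rule, 18 were at least 2-fold higher, 0 were lower and 10 lay within 2-fold, with a median difference of 1.5. Ly6Clo cells had the highest value of the 8 arrays for 21 of them. Ccr7 read 11.66 in Ly6Clo cells, 6.33 to 6.52 on the CX3CR1hi arrays, 9.21 in Ly6Chi cells, and 6.69 and 6.25 in colitis and steady-state spleen. It lay far above every CX3CR1hi array, and the Ly6Chi value lay between. Fscn1, the gene of the actin-bundling protein fascin, read 11.29 in Ly6Clo cells, 5.74 to 7.08 on the CX3CR1hi arrays and 7.22 in Ly6Chi cells. Ccl22 and Ccl17 encode ligands of CCR4, a receptor of T cells. Ccl22 read 10.69 in Ly6Clo cells and 4.60 to 5.73 on all other arrays. Ccl17 read 10.88 in Ly6Clo cells, 5.16 to 6.65 on the CX3CR1hi arrays, 6.69 in Ly6Chi cells and 5.03 to 5.12 in spleen. Neither chemokine gene reached these levels in any other sample. Other members higher in Ly6Clo cells were Nudt17 (difference 3.83), the interleukin 12 signal transducer Stat4 (3.29), the checkpoint ligand gene Pdcd1lg2 (2.62), the inhibitory ligand gene Cd200 (2.48), the cytokine signalling suppressor Socs2 (2.47) and the NF-kappa-B subunit Relb (1.74). Il15ra, which presents interleukin 15, differed by 1.38.

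Conventional dendritic cells have type 1 and type 2 subsets, and genes of both were brighter in Ly6Clo cells. Of 19 type 1 genes measured, 17 passed the brightness rule, 9 were higher and 3 lower, with a median difference of 1.07 over the 19. Xcr1, a chemokine receptor of the type 1 subset, read 8.19 in Ly6Clo cells and 5.42 to 6.74 on the other arrays. Clec9a, a receptor for dead cells, read 9.65 in Ly6Clo cells, 7.04 in colitis CX3CR1hi cells and 5.75 to 6.81 elsewhere. Itgae read 9.47 in Ly6Clo cells and 4.66 to 5.64 on the other arrays. All of these had their highest value in Ly6Clo cells. The subset's transcription factor genes did not separate the pair: Batf3 read 7.63 against 7.39 and Irf8 11.28 against 11.05. The lower genes were Cadm1, an adhesion molecule gene (6.12 against 9.66), the scavenger receptor gene Cd36 (9.03 against 11.33) and the chemokine receptor gene Cxcr3 (5.75 against 7.11).

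Of 20 type 2 genes measured, 17 passed the brightness rule, 10 were higher and 1 lower, with a median difference of 1.38 over the 20. Cd209a, a C-type lectin gene of the DC-SIGN family, read 12.38 in Ly6Clo cells, 11.69 in Ly6Chi cells, 10.24 to 10.64 in spleen and 5.45 to 8.18 on the CX3CR1hi arrays. It was thus high in every Ly6Chi sample as well. The transcription factor gene Irf4 read 9.46 in Ly6Clo cells, 7.07 to 7.49 on the CX3CR1hi arrays and 8.11 to 8.55 in Ly6Chi samples. Clec10a, a galactose-binding lectin, differed by 2.24, the lipid-presenting molecule gene Cd1d1 by 2.90, Tnfsf9, the ligand of 4-1BB, by 2.38 and Cd101 by 2.31. Sirpa and Itgam, surface markers that this subset shares with macrophages, read 11.60 against 12.13 and 10.41 against 10.98. The lower gene was Clec4a2 (8.11 against 9.59).

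Classical class II antigen presentation genes were at like levels in both samples. MHC class II molecules carry peptides to CD4 T cells: H2-DM loads them, and H2-O restrains H2-DM. Of 16 class II pathway genes measured, all passed the brightness rule, 3 were at least 2-fold higher, 1 was lower and 12 lay within 2-fold. The backgrounds were 7.27% higher and 11.8% lower, and the median difference of the 16 was 0.05. H2-Aa read 13.30 against 13.42, H2-Ab1 13.10 against 13.16, H2-Eb1 13.05 against 13.16, H2-DMa 11.70 against 11.88 and the invariant chain gene Cd74 12.92 against 13.12. The deposited values ended at 14.31, and whether these bright probes were saturated was not tested. Ciita, the master coactivator of class II genes, read 11.04 against 10.25 and 9.88 to 10.40 over the CX3CR1hi arrays, a difference under 2-fold. The exceptions were both chains of H2-O and H2-Eb2, a second E beta gene. H2-Oa read 9.79 in Ly6Clo cells, 5.99 to 6.66 on the CX3CR1hi arrays, 6.41 in Ly6Chi cells and 5.04 to 5.66 in spleen. H2-Ob read 11.38 in Ly6Clo cells, 7.92 to 9.24 on the CX3CR1hi arrays, 8.71 in Ly6Chi cells and 7.17 to 8.03 in spleen. H2-Eb2 read 9.76 in Ly6Clo cells, 5.14 to 6.38 on the CX3CR1hi arrays, 6.06 in Ly6Chi cells and 5.47 to 6.22 in spleen. None of the 3 was raised in Ly6Chi cells. The lower gene was Lgmn, a lysosomal protease (11.48 against 12.89).

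**Figure D3:**
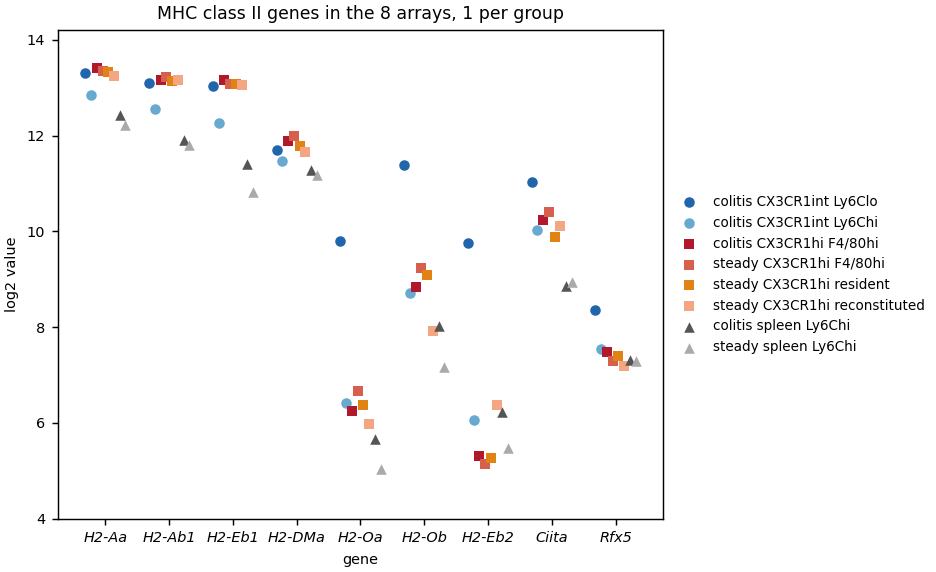
Log2 value (vertical axis) of MHC class II genes (horizontal axis) on the 8 arrays, 1 point per array and 1 array per group. H2-Aa, H2-Ab1 and H2-Eb1 lie close together on the colonic CX3CR1hi and Ly6Clo arrays, while H2-Oa, H2-Ob and H2-Eb2 are highest on the Ly6Clo array, at 9.79, 11.38 and 9.76.

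Class II promoters carry an X box, bound by the RFX complex, and a Y box, bound by NF-Y, at a set distance, and CIITA acts through both. The following promoters show whether the genes that differed and those that did not share these letters. Each is the 150 bases before the gene start, 5′ to 3′ on the gene's strand, taken from the RefSeq promoter table (assembly GRCm38.p6), which held a window for 8364 of the genes compared. Capitals mark the X box letters AGCAAC and the Y box letters GATTGG where they were found in this order, or GATTGG alone in H2-Aa.
H2-Oa, chr17:34092229-34092378, plus strand: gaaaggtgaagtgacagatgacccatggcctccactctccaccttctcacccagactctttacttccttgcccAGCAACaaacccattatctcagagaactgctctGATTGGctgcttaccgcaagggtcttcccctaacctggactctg
H2-Ob, chr17:34238755-34238904, plus strand: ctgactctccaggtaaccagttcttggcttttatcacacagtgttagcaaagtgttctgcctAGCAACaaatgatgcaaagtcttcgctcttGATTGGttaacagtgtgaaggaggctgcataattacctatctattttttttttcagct
H2-Eb2, chr17:34325525-34325674, plus strand: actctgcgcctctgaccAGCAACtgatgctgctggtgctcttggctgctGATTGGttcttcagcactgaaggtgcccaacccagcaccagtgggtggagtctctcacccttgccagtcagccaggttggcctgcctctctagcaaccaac
H2-Eb1, chr17:34305717-34305866, plus strand: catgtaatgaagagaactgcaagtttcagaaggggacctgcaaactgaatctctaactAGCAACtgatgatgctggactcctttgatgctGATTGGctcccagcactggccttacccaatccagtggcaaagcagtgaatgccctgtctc
H2-Aa, chr17:34287824-34287973, minus strand: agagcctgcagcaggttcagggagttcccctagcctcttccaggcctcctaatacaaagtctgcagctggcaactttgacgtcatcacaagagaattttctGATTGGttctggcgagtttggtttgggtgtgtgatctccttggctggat

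The starts of AGCAAC and GATTGG lay 33 bases apart in H2-Oa, 30 in H2-Ob and 32 in H2-Eb2 and H2-Eb1. H2-Eb1 was not 2-fold apart between the arrays, although it has both motifs. Of the other genes within 2-fold that were searched, H2-Aa has only GATTGG in its exact letters. Neither motif was found in these letters in either of the 2 windows of H2-DMa. No promoter window was available for H2-Ab1 or Ciita, which were also within 2-fold, so neither was searched. All 3 genes that differed thus have the pair in its exact letters, as does 1 of the 3 genes within 2-fold that were searched. H2-Aa holds ggcaac, which differs from AGCAAC in 1 letter, at the same distance from GATTGG as in H2-Oa. The exact search does not count ggcaac, so these counts cannot separate the genes that differed from those that did not. AGCAAC stood on either strand in 7.75% of 32851 promoter windows of this length, and GATTGG in 10.9%. The pair on 1 strand with starts 30 to 33 bases apart stood in 6 windows (0.0183%), those of the 4 class II genes named here and of Gm34752 and Nasp. This spacing range was taken from the 4 class II windows themselves. The 6-letter motifs do not overlap in sequence, and a match is a description of letters, not a bound site.

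Class I and costimulatory genes differed at a few members. Of 17 class I pathway genes measured, 3 were higher, 1 lower and 13 within 2-fold, with a median difference of 0.13. Over all genes compared, 7.27% were higher and 11.8% lower, together 19.1%. The higher ones were Cd1d1, the peptide transporter subunit Tap1 (11.23 against 10.16) and the immunoproteasome subunit Psmb9 (10.73 against 9.30). Mr1, which presents vitamin B metabolites, was lower (6.02 against 8.60). Of 20 costimulatory and coinhibitory genes measured, 17 passed the brightness rule, 4 were higher and 2 lower. The higher ones were Pdcd1lg2, Cd200, Tnfsf9 and Icosl (10.92 against 9.48), and the lower ones Cd276 (6.81 against 8.40) and Vsir (9.88 against 11.39). The most used maturation markers stayed within 2-fold, with differences of 0.81 for Cd80, 0.24 for Cd86 and 0.96 for Cd40.

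Signals from dendritic cells steer T cells, and the genes measured here went both ways. Of 19 T cell polarising cytokine genes measured, 14 passed the brightness rule, 4 were higher and 4 lower. Il12b, the p40 chain of interleukins 12 and 23, read 8.28 in Ly6Clo cells, 5.67 to 6.15 on the CX3CR1hi arrays, 5.23 in Ly6Chi cells and 5.20 to 5.23 in spleen. It was highest in Ly6Clo cells by 2.13. Il23a, the p19 chain, read 6.07 in Ly6Clo cells, 4.97 to 5.61 on the CX3CR1hi arrays and 7.74 in Ly6Chi cells, so its highest value was in Ly6Chi cells. Il6 showed the same order, with 7.80 in Ly6Clo cells, 4.92 to 5.57 on the CX3CR1hi arrays and 8.78 in Ly6Chi cells. Il22ra2, the decoy receptor of interleukin 22, read 8.34 in Ly6Clo cells, 4.52 in colitis F4/80hi cells, 4.66 and 5.32 in steady-state F4/80hi and resident cells, 9.16 in monocyte-reconstituted cells and 4.83 in Ly6Chi cells. Its direction thus turned against the monocyte-reconstituted array (difference -0.82). Lower were Il10, the B cell survival factor gene Tnfsf13b (7.27 against 9.80), Il16 (7.21 against 9.03) and Il15 (difference -1.25).

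Retinoic acid made by gut dendritic cells imprints gut homing on T cells. Aldh1a2, the enzyme for its last step, read 6.70 in Ly6Clo cells and 4.30 to 4.59 on the other 7 arrays. Aldh1a1, another enzyme of that step, was lower, at 5.84 against 7.36, and the retinoid reductase gene Dhrs3 read 9.20 against 11.15. Itgb8, a chain of the integrin that activates transforming growth factor beta, was below the brightness rule at 5.05 against 4.91. Its partner chain gene Itgav was lower, at 9.44 against 11.09. Over the 25 genes of this group, 14 passed the brightness rule, 2 were higher and 4 lower, with a median difference of 0.01 over all measured. Itgb7, an integrin chain of gut-homing cells, read 9.08 against 5.28, and the gut-homing chemokine receptor gene Ccr9 7.55 against 4.41. Itgb7 was also high in Ly6Chi cells (9.09) and spleen (9.61), while Ccr9 was highest in Ly6Clo cells.

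The macrophage core was lower in Ly6Clo cells in nearly every member. Of 35 genes measured, all passed the brightness rule, 29 were at least 2-fold lower, 0 were higher and 6 lay within 2-fold, beside backgrounds of 11.8% and 7.27%, with a median difference of -2.22. For 26 of them the Ly6Clo value lay at least 2-fold below all CX3CR1hi arrays (background 7.3%), and for 25 it was the lowest of all 8 arrays. These counts include the gate genes Cx3cr1 and Adgre1, which the sort itself set apart. Mertk, a receptor for the uptake of dying cells, read 7.23 in Ly6Clo cells, 10.79 in both F4/80hi samples, 10.51 in resident cells, 10.96 in monocyte-reconstituted cells, 8.26 in Ly6Chi cells, and 6.30 and 5.77 in colitis and steady-state spleen. It lay well below the CX3CR1hi arrays and above the spleen. Csf1r read 10.65 in Ly6Clo cells and 11.84 to 12.25 on the other 7 arrays, Ly6Chi samples included. Fcgr1, the high-affinity antibody receptor CD64 often used to tell macrophages from dendritic cells, read 10.14 to 10.60 on the other 7 arrays and differed by -1.43 between the colitis pair. Both were lowest in Ly6Clo cells, though neither was dim there. Maf, a macrophage transcription factor gene, read 7.56 in Ly6Clo cells, 10.30 to 10.97 on the CX3CR1hi arrays and 8.28 to 8.58 in Ly6Chi samples. Tlr7, a sensor of single-stranded RNA, read 7.19 in Ly6Clo cells and 10.43 to 12.37 on the other 7 arrays. Lyz2, the lysozyme gene of myeloid cells, read 11.82 against 13.12.

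**Figure D4:**
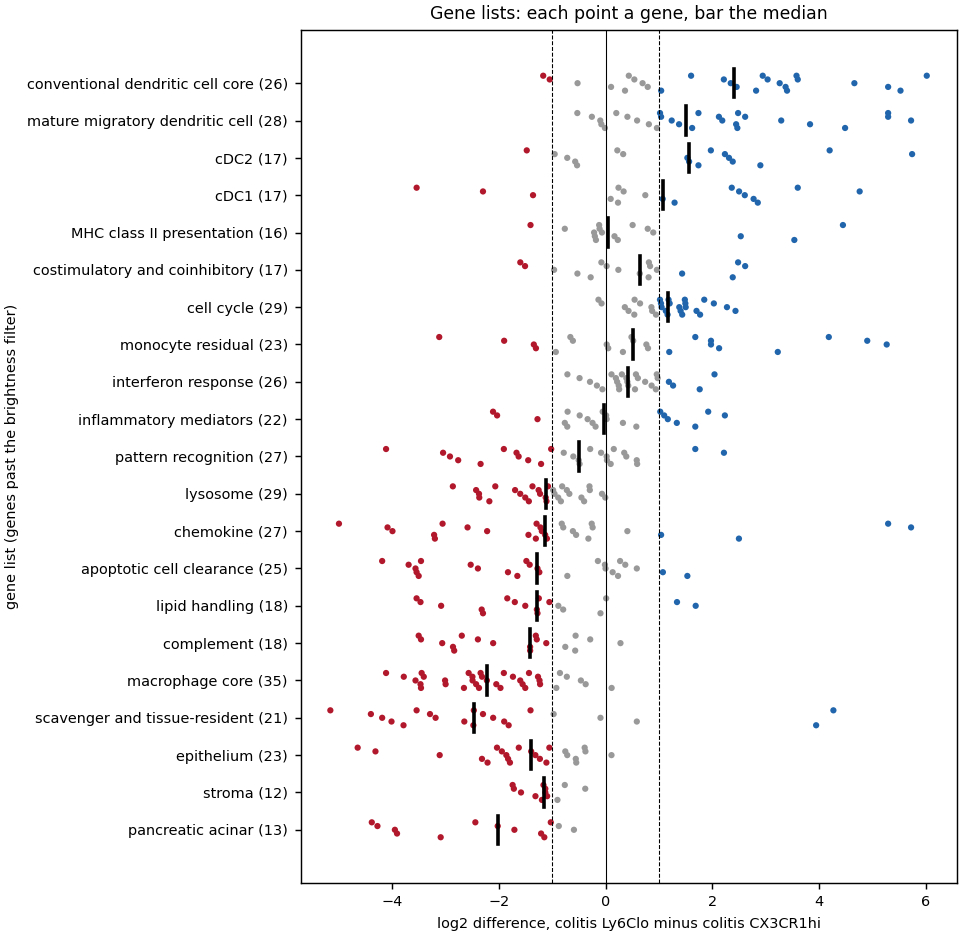
Log2 difference, colitis Ly6Clo minus colitis CX3CR1hi (horizontal axis), for each gene past the brightness rule in the gene lists (vertical axis), 1 point a gene with the list's median as a bar, the number of genes in brackets, and blue and red for genes at least 2-fold higher and lower. Dendritic cell core genes centre on 2.40 and macrophage core genes on -2.22, while MHC class II genes centre on 0.05.

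Most scavenger and tissue-resident macrophage genes were lower. Of 25 measured, 21 passed the brightness rule, 16 were lower, 2 higher and 3 within 2-fold, with a median difference of -2.11 over the 25. At least 2-fold below the range of all CX3CR1hi arrays lay 9 genes. The median level of the 25 was 6.69 in Ly6Clo cells, 6.59 in Ly6Chi cells and 9.14 in colitis F4/80hi cells. By this median the Ly6Chi array was thus as low as the Ly6Clo array. Stab1, a scavenger receptor gene, read 7.90 in Ly6Clo cells and 11.69 to 12.09 on the CX3CR1hi arrays. Folr2, a folate receptor of resident macrophages, read 5.95 in Ly6Clo cells and 9.19 to 9.96 on those arrays. Cd163, the haemoglobin scavenger receptor, read 5.60 in Ly6Clo cells, 9.14 in colitis F4/80hi cells, 7.60 and 8.22 in steady-state F4/80hi and resident cells, and 5.99 in monocyte-reconstituted cells. It was therefore also low in monocyte-reconstituted macrophages. Against the monocyte-reconstituted array the median of those past the rule was -1.01, compared with -2.47 against colitis F4/80hi cells. The higher genes were Cd209d (9.35 against 5.40) and Cd209c (9.14 against 4.87), relatives of Cd209a. The mannose receptor gene Mrc1 read 9.92 against 12.39.

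Genes for clearing dead cells, complement, Fc receptors and lysosomes were on the same side. Of 29 clearance genes measured, 25 passed the brightness rule, 14 were lower and 2 higher, among the lower Itgb5 (7.81 against 11.50), Trem2 (5.96 against 9.50) and Gas6, a bridge between dying cells and MERTK (8.15 against 10.68). The higher ones were Cd300lf (8.70 against 7.17) and Abca7 (8.99 against 7.91). Of 19 complement genes measured, 18 passed the rule, 13 were lower and 0 higher. C1qa read 8.68 in Ly6Clo cells, 11.93 to 12.14 on the CX3CR1hi arrays, 7.92 in Ly6Chi cells and 5.78 to 7.16 in spleen. C1qb and C1qc, its partner chains, differed by -2.39 and -3.50, and the anaphylatoxin receptor genes C5ar1 and C3ar1 by -3.06 and -2.84. Of 12 Fc receptor genes measured, 7 passed the rule, 5 were lower and 0 higher, among them Fcgr3 (9.74 against 12.29) and Fcgr4 (9.64 against 11.60). Of 30 lysosomal genes measured, 29 passed the rule, 16 were lower and 0 higher, with differences of -2.42 for the protease gene Ctsl, -2.37 for Ctsd and -2.86 for the tetraspanin gene Cd63.

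Lipid and iron genes also leaned to the lower side. Of 20 lipid handling genes measured, 18 passed the brightness rule, 12 were lower and 2 higher. Apoe, the lipid carrier apolipoprotein E, read 9.92 in Ly6Clo cells, 12.89 or more on the CX3CR1hi arrays and 11.29 to 11.59 in Ly6Chi samples, so Ly6Clo cells had the lowest value of all. The cholesterol exporter gene Abca1 read 7.63 against 11.09. Fabp5, a fatty acid carrier, was higher (10.33 against 8.99), as was Olr1 (6.73 against 5.04). Of 18 haem and iron genes measured, 15 passed the rule, 7 were lower and 0 higher, including the haem oxygenase gene Hmox1 (8.91 against 11.14), the iron exporter gene Slc40a1 (6.63 against 9.50) and Spic, a transcription factor of iron-recycling macrophages (6.42 against 9.57). Prostaglandin and leukotriene genes were split: Hpgds, the prostaglandin D synthase (8.18 against 11.63), and Alox5 (6.28 against 9.06) were lower, while Alox5ap (11.27 against 9.84), Lta4h (10.58 against 9.20) and Ptgs2 (12.50 against 11.48) were higher.

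In the interleukin 10 circuit the cytokine gene differed and the receptor gene Il10ra lay within 2-fold. Il10 read 6.46 in Ly6Clo cells, 10.63 and 10.56 in colitis and steady-state F4/80hi cells, 11.01 in resident cells, 9.92 in monocyte-reconstituted cells, 7.37 in Ly6Chi cells and 4.87 to 5.04 in spleen. The 17.9-fold difference between the colitis arrays left Ly6Clo cells below every CX3CR1hi array and below Ly6Chi cells. Il10ra read 11.52 against 11.53. The transforming growth factor beta receptor genes Tgfbr1 (9.26 against 11.90) and Tgfbr2 (9.18 against 10.69) were lower, as was their signal transducer Smad3 (7.61 against 8.97), while the inhibitory Smad7 was higher (9.83 against 8.61). Of 20 genes of this group, 2 were higher, 4 lower and 14 within 2-fold.

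Inflammatory mediators lay on both sides. Of 30 measured, 22 passed the brightness rule, 7 were higher, 3 lower and 12 within 2-fold, with a median difference of 0.04 over the 30. Il1b, a main inflammatory cytokine gene, read 12.96 in Ly6Clo cells, 12.62 to 12.76 on the CX3CR1hi arrays and 12.95 in Ly6Chi cells. Tnf read 8.86 in Ly6Clo cells, 9.44 to 10.21 on the CX3CR1hi arrays and 8.91 in Ly6Chi cells. Nos2, the inducible nitric oxide synthase gene, was below the brightness rule. Il1a (8.24 against 10.34) and the growth factor gene Hbegf (7.33 against 9.36) were lower. Trem1, an amplifier of myeloid inflammation (7.60 against 5.67), and Clec4e, a receptor for microbial glycolipids (9.02 against 7.34), were higher. Vegfa, the vascular growth factor gene, was higher than in colitis F4/80hi cells (9.79 against 8.46) but lower than in resident cells (difference -0.20).

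**Figure D5:**
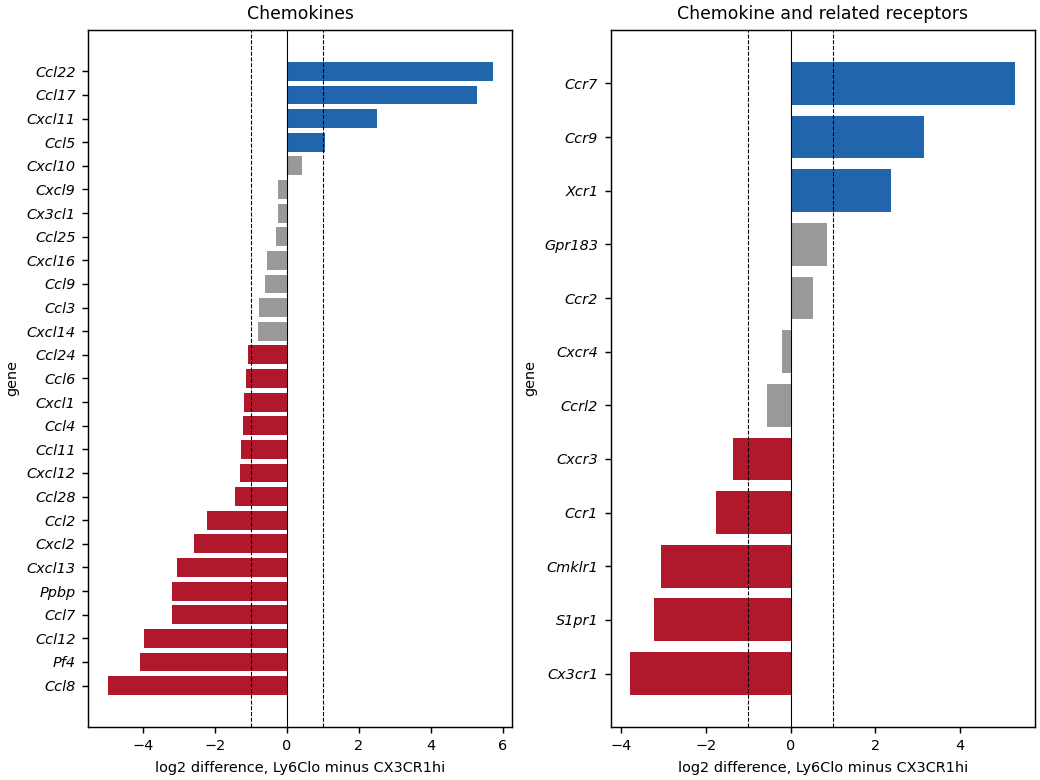
Log2 difference, colitis Ly6Clo minus colitis CX3CR1hi (horizontal axis), for chemokine and chemokine receptor genes past the brightness rule (vertical axis), 1 array per group, with dashed lines at 2-fold and grey bars within it. Ccl22 (5.73), Ccl17 (5.30) and Ccr7 (5.30) lie on the Ly6Clo side, and Ccl8 (-5.00), Pf4 (-4.08) and Ccl12 (-3.99) on the CX3CR1hi side.

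Most chemokine genes that were 2-fold apart were brighter in CX3CR1hi cells. Of 33 measured, 27 passed the brightness rule, 15 were lower, 4 higher and 8 within 2-fold. The lower ones included the monocyte attractants Ccl8 (7.27 against 12.27), Ccl12 (5.29 against 9.29), Ccl7 (8.19 against 11.40) and Ccl2 (8.81 against 11.03), the neutrophil attractant gene Cxcl2 (9.53 against 12.11), the B cell attractant gene Cxcl13 (7.44 against 10.50) and Pf4, platelet factor 4 (7.48 against 11.56). Besides Ccl17 and Ccl22, the higher ones were Cxcl11 (8.66 against 6.16) and Ccl5 (11.52 against 10.47). Of 24 chemokine receptor genes measured, 12 passed the rule, 3 were higher (Ccr7, Ccr9 and Xcr1) and 5 lower, the gate gene Cx3cr1 among them. Ccr2, the receptor with which monocytes enter tissue, read 11.09 in Ly6Clo cells, 9.86 to 10.79 on the CX3CR1hi arrays, 12.32 in Ly6Chi cells and 12.65 to 12.68 in spleen. It thus lay between the macrophages and the monocytes. Ccr1, another inflammatory receptor, was lower at 8.60 against 10.35.

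Genes of blood monocytes were part of the Ly6Clo excess. Of 29 measured, 23 passed the brightness rule, 9 were higher and 4 lower. Besides Ifitm6 and S100a4, Mcemp1 (9.37 against 5.19), Plac8 (11.60 against 9.47) and Ms4a4c (11.80 against 9.82) were higher, and the clotting factor gene F13a1 was lower (7.55 against 10.66). The median level of this group was 9.65 in Ly6Clo cells, 8.14 to 8.80 on the CX3CR1hi arrays and 11.28 to 11.62 in Ly6Chi samples, which placed Ly6Clo cells between them.

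Lineage transcription factor genes split by side. Of 40 measured, 8 were higher, 12 lower and 20 within 2-fold. The higher ones were Bcl11a, Stat4, Nr4a3 (11.33 against 8.05), Zbtb46, Bhlhe40 (11.53 against 9.23), Irf4, Relb and Bcl6 (10.06 against 8.77). The lower ones included Tfec (6.63 against 10.35), Maf, Spic, Klf2 (6.96 against 9.59), Cebpa (7.94 against 9.98), Pparg (7.76 against 9.46) and Zeb2 (9.83 against 11.21). For Mitf, also called lower, a second probe set differed by only -0.25. Bhlhe41 was lower at 4.52 against 7.80, the opposite side from its relative Bhlhe40.

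Pattern recognition genes were lower more often than higher. Of 27 measured, 11 were lower, 2 higher and 14 within 2-fold. Besides Tlr7, Tlr8 (8.14 against 11.05), Tlr4 (7.35 against 9.69) and its partners Ly96 (8.69 against 11.45) and Cd14 (9.39 against 11.30) were lower. Nod2, a sensor of bacterial cell wall fragments, was higher (8.99 against 6.77), as was Clec4e. The double-stranded RNA sensor Tlr3 read 8.40 against 8.30.

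Adhesion and matrix genes were lower for 11 of 35 measured and higher for 5. Vcam1 (7.42 against 11.57), the integrin chain gene Itga9 (7.64 against 11.26), the protease inhibitor gene Timp2 (7.42 against 10.70) and Mmp14 (8.10 against 10.46) joined Mmp13 on the lower side. Adam8 (10.36 against 7.18), Timp1 (6.48 against 5.04) and Selplg, the selectin ligand gene (11.64 against 10.56), were higher with Itgae and Itgb7. Stromal cells also express such genes, and the stromal levels given above differed the same way between the colitis arrays. Of the adhesion and matrix genes, 10 lay at least 2-fold below the range of all CX3CR1hi arrays (background 7.3%). The part of stromal cells in these differences was not tested.

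Cell cycle genes were brighter in Ly6Clo cells. Of 29 measured, 19 were at least 2-fold higher, 0 lower and 10 within 2-fold, with a median difference of 1.16. Ly6Clo cells had the highest value of the 8 arrays for 26 of the 29. At least 2-fold above the range of all CX3CR1hi arrays lay 10, fewer than the 19 of the pair, beside a background of 5.01%. Mki67, the Ki-67 proliferation marker, read 10.85 in Ly6Clo cells, 9.49 to 9.96 on the CX3CR1hi arrays, 9.38 in Ly6Chi cells and 8.03 to 8.08 in spleen. Bub1, of the spindle checkpoint, read 9.58 against 7.14, the ribonucleotide reductase subunit gene Rrm2 8.49 against 6.21, and the replication helicase genes Mcm2 to Mcm7 differed by 1.04 to 1.77. Top2a, the topoisomerase gene, differed by 2.03 on its brighter probe set and by 0.83 on its other. Interferon response genes were within 2-fold for 22 of 26, with Oas3 (8.12 against 6.08), Usp18 (10.10 against 8.33), Mx1 (8.74 against 7.47) and Irf7 (difference 1.19) higher. Over all genes compared, 19.1% were at least 2-fold apart and 7.27% higher. Of 23 glycolysis and hypoxia genes measured, 22 passed the brightness rule, 6 were higher and 1 lower, among the higher the phosphofructokinase gene Pfkp (10.74 against 8.67) and the glucose transporter gene Slc2a1 (11.06 against 9.77).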

How the data were processed

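The deposited log2 values were made by the authors with RMA, which corrects background, normalizes quantiles and summarises probes, and with Partek, per the submitters' processing notes. Versions and genome build are not given in the sources used here. Of 35399 probe sets, 21789 had 1 gene symbol in the platform annotation, 1621 had several and 11989 were unnamed. Only the first were used, and a gene with several took its brightest by mean. Differences were computed with Python 3.11.15, numpy 2.4.6 and pandas 2.3.3, with no normalization added. Code was tested on simulated data.

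Genes named are the 15 highest and 15 lowest, the defining genes, and up to 8 members of each list by size of difference, with others as examples chosen after their values were seen. The defining genes and 43 lists were chosen with earlier results of these data known, and 7 further lists after the values were seen. Alternatives changed the brightness rule, probe set choice, scaling, fold or macrophage array. The number of arrays limits the precision.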

Additional observations from a re-analysis of the deposited data

How the results depend on the processing

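With 1 array per group, no replicate could be left out. No paired analysis was possible because each group had 1 array. A median or a gene's difference is said to move where it changed by more than the SD over the 4 CX3CR1hi arrays. With the brighter array at or above its 75th percentile, fewer genes were compared, 494 were higher and 692 lower, 481 lay below the CX3CR1hi range, and medians were 1.24 for migratory dendritic cell, -0.089 for class II and 1.44 for cell cycle genes. At 4-fold, 194 were higher and 301 lower. Repeated quantile normalization moved the class II median to 0.138. With the steady-state F4/80hi array in place of the colitis one, medians were 1.70 for migratory dendritic cell, 0.154 for class II, -1.93 for macrophage core and -1.59 for scavenger genes, and the stromal genes Dcn (0.28) and Pdgfra (0.011) reversed. With the resident array they were 1.59 for migratory, -0.033 for class II, -2.04 for macrophage core and 0.99 for cell cycle genes, and Vegfa (-0.20) reversed. With the monocyte-reconstituted array they were 2.26 for dendritic cell core, -1.93 for macrophage core, -1.01 for scavenger and 0.89 for cell cycle genes. There the stromal list (0.32) reversed, as did Il22ra2 (-0.82), Col1a1 (0.32), Col1a2 (0.38), Dcn (0.50), Col3a1 (0.34), Pdgfra (0.12), Sparc (0.22) and Igha (0.20). The cause of these changes was not tested. Of 50 list medians, 22 moved with no brightness rule, 15 with the stricter one, 1 after centring and 2 after quantile normalization. With the steady-state F4/80hi array 29 moved, with the resident array 33, and with the monocyte-reconstituted array 39, besides the stromal list that reversed. Of 385 named genes that were 2-fold apart, 381 stayed so after median centring and 383 after repeated quantile normalization. Against the steady-state F4/80hi array 323 of 369 did, against the resident array 332 of 381 and against the monocyte-reconstituted array 305 of 372. The class II median changed sign between settings and stayed near 0.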

Other observations

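Several gene families outside the main groups held members far apart between the pair, and their lists were drawn up after the values were seen. Of 22 killer cell lectin-like receptor genes measured, 9 passed the brightness rule, 7 were at least 2-fold higher in Ly6Clo cells and 1 lower. The median difference was 3.34 over the 9 but 0.14 over all 22 measured. Klrd1 read 10.70 in Ly6Clo cells, 5.11 to 5.70 on the CX3CR1hi arrays, 8.27 in Ly6Chi cells and 6.07 to 6.39 in spleen. Klri1 (11.49 against 7.53), Klrk1, the activating receptor NKG2D (9.98 against 6.08), Klrb1f (8.80 against 5.03) and Klri2 (8.92 against 5.58) were also higher, and Klra2 was lower (8.64 against 10.42). Tbx21, the transcription factor T-bet (8.71 against 5.15), and Spib (8.04 against 4.62) were higher as well, while Ncr1 and Klrb1c, which lay below the brightness rule, read 4.64 against 4.30 and 4.54 against 4.46. Of the 13 natural killer and innate lymphoid genes measured, 3 passed the rule (Klrk1, Kit and Tbx21), all of them higher. Of 14 cytokine receptor genes measured, from the common gamma chain, interleukin 12 and interleukin 1 families, 9 passed the rule, 5 were higher and 0 lower. The higher ones were Il2ra (8.47 against 4.86), Il12rb2 (8.61 against 5.04), Il1r2, an interleukin 1 decoy receptor (12.08 against 9.25), Il18rap (7.62 against 4.84) and Il15ra. The median difference was 1.38 over the 9 and 0.86 over all 14 measured.

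The Cd209 lectins lay on both sides, with Cd209a, Cd209c, Cd209d and Cd209e (6.66 against 5.12) higher and Cd209f lower (4.34 against 8.13). Ly75, the uptake receptor DEC-205, was higher (8.98 against 5.29). Clade B serpins also split, with Serpinb6b, Serpinb9 (9.87 against 6.53) and Serpinb10 (7.97 against 4.74) higher and Serpinb8 (6.68 against 9.65) lower. Of 15 measured genes known from microglia, the macrophages of the brain, 13 passed the brightness rule. Of these, 12 were lower in Ly6Clo cells, the gate gene Cx3cr1 among them, and 0 higher. The lower genes included P2ry12 (6.01 against 10.22), P2ry13 (7.72 against 11.61), Tmem119 (5.38 against 9.20) and Gpr34 (5.43 against 8.60). By the brightness rule itself, any lower gene has a CX3CR1hi value at or above that array's median of 5.87. Likewise, any higher gene has a Ly6Clo value at or above that array's median of 5.84.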
